A study of Mus musculus with 4 samples.

Results

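The histone genes of the genomic clusters were examined on 4 single-colour mouse expression arrays whose labelled RNA had been primed with oligo-dT. Members were all non-control probes whose gene name on the array begins with Hist1h, Hist2h, Hist3h or Hist4h, and each name was represented by its brightest probe. This gave 47 gene names, measured by 51 probes, of 31829 gene names and 39429 probes in all: 6 of the linker histone H1, 14 of H2A, 11 of H2B, 8 of H3 and 8 of H4. The array files place 34 of the genes on chromosome 13 between 21814057 and 24026527, 9 on chromosome 3 between 96024171 and 96074115, 3 on chromosome 11 between 58762964 and 58769013 and 1 on chromosome 6 (build mm9).

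The study asked how engineered muscle responds to acute electrical stimulation. Three-dimensional engineered mouse muscle was stimulated for 30 min (acute EPS, which the labels spell out as electrical plus stimulation) and sampled when this ended (0 min) or 5 h later, and matching muscle without EPS was sampled at the same times. Each of the 4 groups (EPS 0 min, EPS 5 h, no EPS 0 min and no EPS 5 h) had 1 array, so no spread between samples exists, no test was possible, and every difference is between a pair of arrays. Mouse strain, cell source and any alleles are not given in the sources used here.

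Histone proteins wrap DNA: pairs of H2A with H2B and of H3 with H4 build the nucleosome core, and H1 binds the linker between cores. Most clustered histone genes are replication-dependent. Their mRNA is made in S phase and ends in a short stem loop, bound by the stem-loop binding protein SLBP, in place of a poly(A) tail, so an oligo-dT primer has no tail to anneal to. Some clustered genes also give polyadenylated RNA when cells leave the cycle and differentiate, as myoblasts do when they form muscle fibres.

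For some of the probes, the sequence shows which part of the mRNA was read. The stem loop, searched on the transcript strand as GGCTCTT, any letter, T, any letter and AGAGCC, was whole in 5 of the 51 histone probes and in no other of the 39429 probes. A further 2 histone probes held at least 10 of its 16 letters at an edge, and so did 4 probes that are not of clustered histone genes. The 7 histone probes are shown as windows of 30 bases, with the letters of the stem loop in capitals. The stem loop ends the processed, tail-less transcript. The Hist1h2ae probe begins within the stem loop and runs on past it.
Hist1h3a: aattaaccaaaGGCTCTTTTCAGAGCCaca
Hist1h3g: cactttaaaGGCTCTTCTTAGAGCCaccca
Hist1h3i: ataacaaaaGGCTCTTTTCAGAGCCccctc
Hist2h2aa1: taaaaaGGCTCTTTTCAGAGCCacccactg
Hist2h2bb: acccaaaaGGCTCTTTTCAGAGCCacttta
Hist1h2ab: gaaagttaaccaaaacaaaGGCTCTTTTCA
Hist1h2ae: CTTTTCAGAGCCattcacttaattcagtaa

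A second kind of probe ended in the letters of a stop codon (TAA, TAG or TGA), with no earlier stop codon in that frame. Such probes are called stop-codon probes below. They were found by letters only, as coding positions were not annotated. By this rule they made up 8 of the 51 histone probes (15.7%) against 6.28% of all probes, where a match need not be the end of a coding sequence. The H2A probes of this kind are shown whole, with the stop codon in capitals, because they differ from each other at few bases.
Hist1h2af: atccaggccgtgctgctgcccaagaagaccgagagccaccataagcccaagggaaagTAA
Hist1h2ah: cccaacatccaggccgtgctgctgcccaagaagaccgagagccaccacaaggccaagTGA
Hist1h2ak: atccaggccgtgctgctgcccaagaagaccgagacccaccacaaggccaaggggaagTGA
Hist1h2an: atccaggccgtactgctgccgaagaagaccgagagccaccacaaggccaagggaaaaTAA
Hist2h2aa2: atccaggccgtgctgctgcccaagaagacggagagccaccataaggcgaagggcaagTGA
Hist2h2ac: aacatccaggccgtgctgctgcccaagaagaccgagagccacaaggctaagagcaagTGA
The remaining probes of this kind read Hist1h4k and Hist1h1e.
Hist1h4k: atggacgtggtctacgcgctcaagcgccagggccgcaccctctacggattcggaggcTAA
Hist1h1e: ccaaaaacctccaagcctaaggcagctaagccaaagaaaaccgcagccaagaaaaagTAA
In mm9 they lie at chr13:23626113-23626172 (Hist1h2af), chr13:22127035-22127094 (Hist1h2ah), chr13:21845304-21845363 (Hist1h2ak), chr13:21878695-21878754 (Hist1h2an), chr3:96049837-96049896 (Hist2h2aa2), chr13:21842063-21842122 (Hist1h4k) and chr13:23713707-23713766 (Hist1h1e). The position given for the Hist2h2ac probe, chr3:96049834-96049896, covers that of Hist2h2aa2. Of the 47 brightest probes, 12 list transcripts of several RefSeq genes. The Hist1h2ah probe lists those of H2ac7, H2ac12, H2ac13 and H2ac24, and the Hist1h4k probe those of H4c1, H4c11, H4c12 and H4c18, so their signal cannot be assigned to a single gene.

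Probes of the third kind ended in a run of A, shown in capitals with the 24 bases before it. They were 2 of the 51 histone probes, against 1.22% of all probes.
Hist2h3c2: ataattacatcaccagacttctggAAAAAA
Hist1h4i: tgcgccacaagacctggccagtgtAAAAAA
Hist2h3c2 and Hist1h4i were well above background on all 4 arrays. A poly(A) signal, AATAAA or ATTAAA, lay in the probes of Hist1h2ag, Hist1h2be, Hist1h4i and Hist3h2ba, 4 of 51 against 16.7% of all probes.

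The clustered histone genes were widely detected in the oligo-dT labelled RNA. A probe counts as well above background when the scanner software sets that flag. On all 4 arrays this held for 37 of the 47 genes, or 78.7%, against 56.8% of all 31829 gene names. By array, 41 were detected on no EPS 0 min, 38 on no EPS 5 h, 40 on EPS 0 min and 37 on EPS 5 h. By class, 8 of 8 H4 genes, 13 of 14 H2A genes, 8 of 11 H2B genes, 5 of 8 H3 genes and 3 of 6 H1 genes were detected on all 4 arrays. Genes detected on none numbered 6, against 34.4% of all names: Hist2h2ab, Hist1h2bb, Hist3h2ba, Hist3h2bb, Hist1h3a and Hist1h3g.

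Detection differed in count between the kinds of probe. All 8 genes whose probe ends at the stop codon were detected on all 4 arrays. Of the 7 stem-loop genes shown above, 4 were (Hist2h2aa1, Hist2h2bb, Hist1h2ab and Hist1h2ae), Hist1h3i was detected on 3 arrays, and Hist1h3a and Hist1h3g on none. The 4 of 7 are 57.1%, against 56.8% of all gene names. Among the other 32 genes, whose probes hold neither feature, 25 were detected on all 4 arrays. All 12 genes whose probe lists several RefSeq genes were detected throughout, against 25 of the 35 whose probe lists a single gene. Of the stop-codon probes, all but those of Hist1h1e and Hist2h2ac list several RefSeq genes. Probed region and number of listed genes thus cannot be told apart here.

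**Figure D1:**
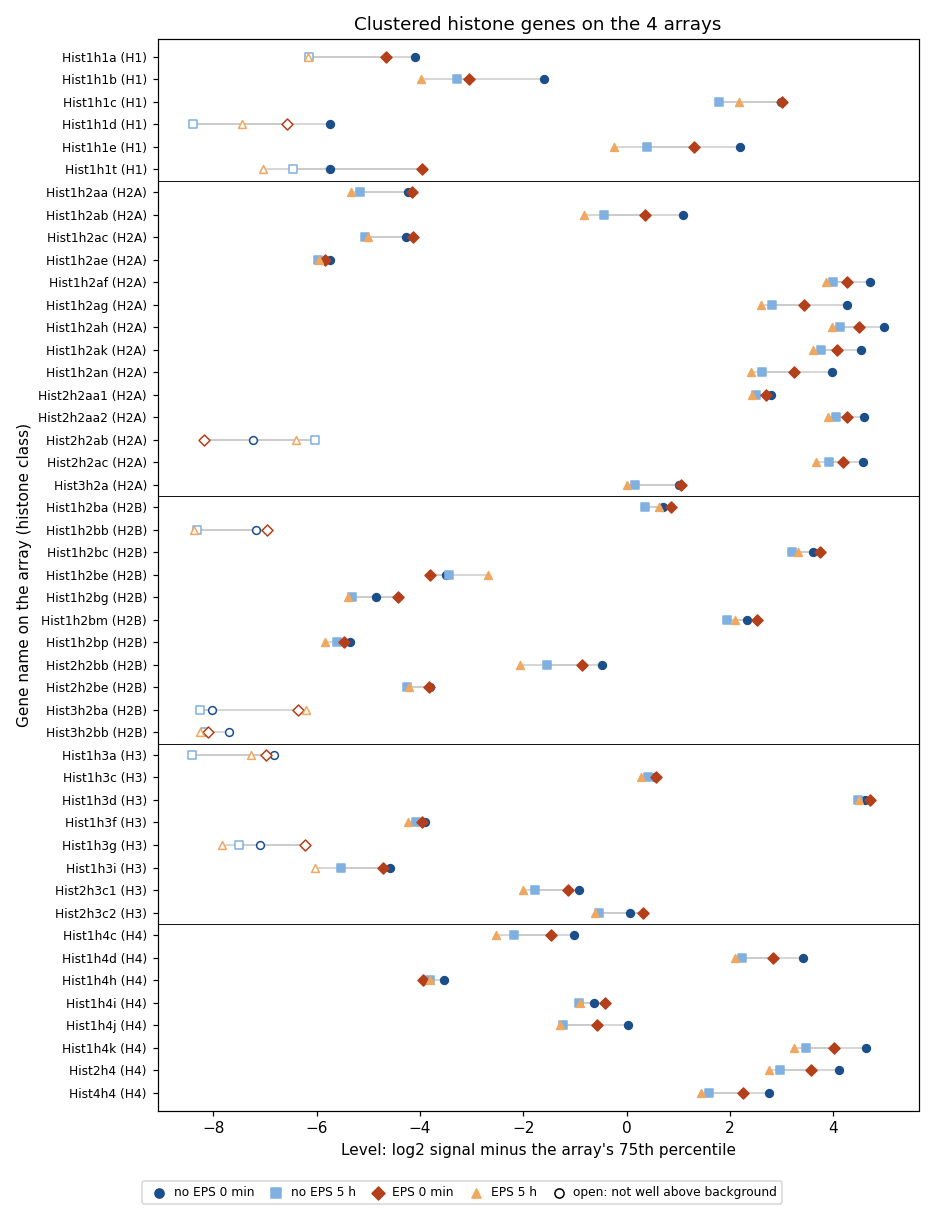
Level of each of the 47 clustered histone genes on each array: the log2 signal of the brightest probe minus the array's 75th percentile on the horizontal axis, genes grouped by class on the vertical axis, with filled marks for values well above background and open marks for the rest. Of the 37 genes filled on all arrays, 35 have both 0 min marks to the right of both 5 h marks; levels of different genes come from different probes and are not comparable.

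Levels are given as the log2 signal minus the array's 75th percentile, so 0 is the level below which 3 in 4 spots of that array lie, and a difference of 1 between arrays is 2-fold. Probes printed 10 times on each array give the error of a spot. Over such probes with a mean level of -3 or above, the SD of a log2 difference between a pair of arrays had a 95th percentile of 0.12 to 0.14 in the 4 comparisons, and over dimmer probes one of 0.46 to 0.51. This covers spot error only, not the spread between muscles. Bulk RNA was labelled, so fewer cells of a type and less RNA per cell cannot be told apart.

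The main pattern was one of time. Both 0 min arrays stood above both 5 h arrays in 35 of the 37 genes detected throughout (94.6%), against 38.0% of all genes so detected; the exceptions were Hist1h2be and Hist1h4h. The highest of the 4 levels was on no EPS 0 min for 24 genes (26.9% of all genes) and the lowest on EPS 5 h for 26 (38.7% of all genes). The full order, no EPS 0 min above EPS 0 min above no EPS 5 h above EPS 5 h, was found in 21 of the 37, or 56.8%, against 13.5% of all genes. It was not counted under other processing, and some of these genes lose it there. With median centring the EPS difference at 5 h was 0.015 for both Hist1h4j and Hist2h2aa1. With normexp background correction that at 0 min was 0.28 for Hist1h2bp and 0.10 for Hist1h3f, both dim. Of the 51 histone probes, 8 share a run of at least 30 bases with another histone probe. The Hist1h2an probe also shares such a run with a probe named RP23-480B19.10. That of Hist2h2aa2 shares one with a probe of H2afj, which belongs to the histone variants outside the clusters that are compared below. Of the 47 brightest, 12 list several RefSeq genes. Counts of histone genes here and below are thus not counts of independent measurements.

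Without EPS, clustered histone RNA was lower at 5 h than at 0 min across classes. Of 38 genes measured on both arrays, 13 were at least 2-fold lower at 5 h, where 2.97% of 18446 genes were, and 0 were 2-fold higher, against 1.74%. The difference was below 0 in 37 of the 38, against 52.7% of all genes, and its median was -0.78 against -0.02 over all genes. The class medians were -1.67 for H1, -1.15 for H4, -0.79 for H2A, -0.40 for H2B and -0.39 for H3, and each stayed below 0 under every scaling and background correction tried. With median centring those of H2B and H3 were -0.26 and -0.25. The 2-fold lower genes were 3 of 3 measured H1 genes, 6 of 8 H4 genes, 3 of 13 H2A genes, 1 of 8 H2B genes and 0 of 6 H3 genes.

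The same comparison after EPS, 5 h against 0 min, used the other pair of arrays. Here 6 of 37 genes were at least 2-fold lower at 5 h, against 3.68% of 18435 genes, and 1 was 2-fold higher, against 2.38%. Values lay below 0 in 35 of 37, against 57.7% of all genes, with a median of -0.73 against -0.08. Class medians were -0.93 (H1), -0.75 (H4), -0.52 (H2A), -0.41 (H2B) and -0.28 (H3); with median centring they were -0.34 for H2A, -0.23 for H2B and -0.10 for H3. Hist1h1e, Hist1h2ab and Hist2h2bb stayed 2-fold lower with normexp background correction and with median centring, while Hist1h2aa, Hist3h2a and Hist1h4c came in under 2-fold with either. Whether the time difference itself differs between muscle with and without EPS was not tested.

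**Figure D2:**
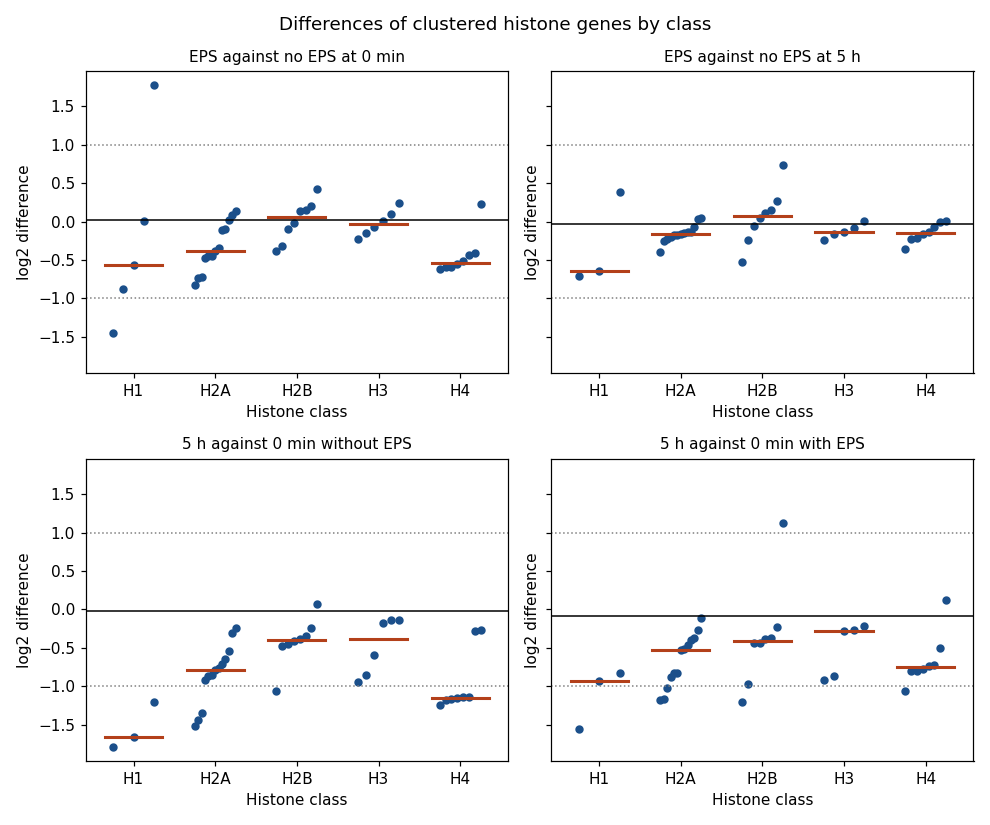
Log2 difference of each clustered histone gene measured on both arrays compared, by histone class, in the 4 comparisons; red bars are class medians, the solid line is the median of all genes and dotted lines mark 2-fold. In both lower panels the class medians lie below the line of all genes, from -1.67 for H1 to -0.28 for H3.

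H1 genes encode the linker histones. Hist1h1e (H1f4) had a level of 2.19 on no EPS 0 min, 1.31 on EPS 0 min, 0.39 on no EPS 5 h and -0.25 on EPS 5 h. Its 5 h level was 3.47-fold lower without EPS and 2.94-fold lower with it, and neither 5 h array reached either 0 min array. Hist1h1c (H1f2), an H1 gene known to give polyadenylated RNA, read 3.00 and 3.01 at 0 min without and with EPS and 1.79 and 2.18 at 5 h. The 0 min levels thus differed by 0.01, within spot error, while 5 h was 2.30-fold lower without EPS and 1.78-fold lower with it.

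Hist1h1b (H1f5), a replication-dependent H1, had the only 2-fold lower level after EPS among the histone genes at 0 min. Its level was -1.61 on no EPS 0 min and -3.06 on EPS 0 min, a 2.74-fold lower value (-1.45), and -3.27 and -3.99 at 5 h without and with EPS. The no EPS 0 min array stood apart above the others. Its 5 h level was 3.18-fold lower without EPS and 1.90-fold lower with EPS.

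The other H1 genes were dim. Hist1h1a was well above background at 0 min, at -4.09 without and -4.66 with EPS, and not at 5 h, which puts 5 h at least 4.16-fold lower without EPS and at least 2.83-fold lower with EPS; such bounds take the dimmest probe well above background on the dim array, or the probe itself where brighter. Hist1h1d was above background on no EPS 0 min only, at -5.73, at least 1.39-fold above EPS 0 min and at least 1.46-fold above no EPS 5 h. Hist1h1t, the testis-specific linker histone, was detected on the 0 min arrays only, at -5.74 without EPS and -3.96 with EPS. That 3.45-fold higher value (1.79) rests on raw signals of 25.6 and 70.6, and with normexp background correction it was 0.79, under 2-fold. With EPS, the 5 h level of Hist1h1t was at least 5.34-fold lower than at 0 min.

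The promoters of the H1 genes that were 2-fold lower at 5 h without EPS are shown from RefSeq (GRCm38.p6), 250 bases before to 50 after the start, at chr13:21780576-21780875 (Hist1h1b, minus strand), chr13:23738557-23738856 (Hist1h1c, plus strand) and chr13:23622509-23622808 (Hist1h1e, minus strand). Capitals mark 3 of the 4 motifs searched on both strands: the TATA box TATAAA, the CCAAT box CCAAT, whose reverse complement is marked where it lies on the other strand, and the H1 box AAACACA. No motif contains the letters of another.
Hist1h1b: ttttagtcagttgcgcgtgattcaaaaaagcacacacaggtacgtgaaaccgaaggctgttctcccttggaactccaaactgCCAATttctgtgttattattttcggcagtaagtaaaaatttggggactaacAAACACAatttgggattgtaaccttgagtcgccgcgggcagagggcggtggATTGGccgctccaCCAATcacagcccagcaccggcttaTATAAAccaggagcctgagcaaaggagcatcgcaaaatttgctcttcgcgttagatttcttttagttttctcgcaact
Hist1h1c: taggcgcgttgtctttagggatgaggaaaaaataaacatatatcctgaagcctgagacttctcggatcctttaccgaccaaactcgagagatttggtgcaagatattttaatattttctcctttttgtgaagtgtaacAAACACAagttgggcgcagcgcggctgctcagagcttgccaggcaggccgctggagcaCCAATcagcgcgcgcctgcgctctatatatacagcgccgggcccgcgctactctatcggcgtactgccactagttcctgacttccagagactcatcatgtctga
Hist1h1e: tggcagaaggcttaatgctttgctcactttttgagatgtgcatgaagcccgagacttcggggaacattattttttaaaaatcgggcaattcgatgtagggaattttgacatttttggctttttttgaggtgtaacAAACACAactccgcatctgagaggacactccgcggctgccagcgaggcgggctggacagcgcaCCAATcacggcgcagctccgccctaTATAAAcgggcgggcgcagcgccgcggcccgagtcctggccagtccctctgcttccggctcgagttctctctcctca
Promoters were in the table for 41 of the 47 genes. AAACACA was in 5 of 6 H1 promoters and 9 of all 41, against 7.18% of 32851 promoters of the same length. TATAAA was in 25 of 41 against 13.6%, and CCAAT in 36 of 41 against 37.4%, though in 2 of 7 H4 promoters. The octamer ATTTGCAT was in 13 of 41 against 1.74%, all of them H2A (7 of 14) or H2B (6 of 8). A match in these letters is a description of the window and shows no binding.

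H2A genes encode a core histone that pairs with H2B. Hist1h2ab (H2ac4), whose probe holds part of the stem loop, had levels of 1.09 and 0.36 at 0 min without and with EPS and of -0.43 and -0.82 at 5 h. This was 2.86-fold lower at 5 h without EPS and 2.27-fold lower with EPS. Hist1h2ag read 4.26 and 3.43 at 0 min and 2.82 and 2.60 at 5 h, and Hist1h2an read 3.98 and 3.24 at 0 min and 2.62 and 2.42 at 5 h. Without EPS these were 2.71-fold and 2.56-fold lower at 5 h; with EPS the differences of both, -0.83 and -0.82, stayed under 2-fold.

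Other H2A genes read at the stop codon stayed under 2-fold over time. Hist1h2ah (H2ac12) had levels of 4.98 and 4.51 at 0 min without and with EPS and 4.13 and 3.99 at 5 h. Hist1h2af read 4.71 and 4.26 at 0 min and 4.0 and 3.86 at 5 h, and Hist2h2aa2 read 4.61 and 4.26, then 4.06 and 3.89. All 3 kept the same order of arrays, and their differences over time lay between -0.85 and -0.37. Hist2h2aa1, whose probe holds the whole stem loop, read 2.81 and 2.69 at 0 min and 2.50 and 2.43 at 5 h, differences of -0.30 and -0.26.

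By their brightest probes, Hist1h2ak, Hist2h2ac and Hist1h2ae also stayed under 2-fold over time. Hist1h2ak read 4.53 and 4.08 at 0 min and 3.77 and 3.61 at 5 h. Hist2h2ac read 4.58 and 4.20, then 3.93 and 3.68. Both probes end at the stop codon too. They share runs of at least 30 bases with those of Hist1h2af and Hist1h2ah, so these are not independent measurements. Hist1h2ae, whose probe holds part of the stem loop, was dim and nearly level, at -5.74 and -5.83 at 0 min and -5.98 and -5.95 at 5 h. Hist2h2ab was not well above background on any array.

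Hist3h2a (H2aw), which lies outside the larger clusters and is known to give polyadenylated RNA, had levels of 1.02 and 1.05 at 0 min and 0.16 and 0.02 at 5 h. The EPS and no EPS arrays of each time differed by 0.02 and -0.14, while 5 h was 1.82-fold lower without EPS and 2.04-fold lower with EPS. Hist1h2ac, another gene with a known polyadenylated form, read -4.26 and -4.13 at 0 min and -5.06 and -5.01 at 5 h. Hist1h2aa, a testis H2A, read -4.24 and -4.16 at 0 min and -5.15 and -5.33 at 5 h, which was 2.25-fold lower at 5 h with EPS. Both are dim, where spot error is larger.

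H2B genes were mixed. Hist2h2bb, whose probe holds the whole stem loop, had levels of -0.47 and -0.86 at 0 min without and with EPS and -1.53 and -2.06 at 5 h, 2.09-fold lower at 5 h without EPS and 2.30-fold lower with it. The first of these came to -0.95 with normexp and -0.93 with median centring, just under 2-fold. Hist1h2be went the other way: its levels were -3.50, -3.81 and -3.43 on no EPS 0 min, EPS 0 min and no EPS 5 h, and -2.69 on EPS 5 h. The EPS 5 h array alone was high, 2.17-fold above EPS 0 min (1.12), and 0.66 with normexp background correction.

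Several other H2B genes stayed under 2-fold between arrays, among them Hist1h2bc and Hist2h2be, which are known to give polyadenylated RNA, and Hist1h2ba of the testis. Hist1h2bc (H2bc4) had levels of 3.61 and 3.75 at 0 min without and with EPS and 3.21 and 3.32 at 5 h. Hist2h2be (H2bc21) read -3.81 and -3.82 at 0 min and -4.25 and -4.21 at 5 h. Hist1h2ba, the testis H2B, read 0.71 and 0.87 at 0 min and 0.37 and 0.64 at 5 h, and Hist1h2bm read 2.32 and 2.53, then 1.94 and 2.10. In all 4 of them the 5 h levels lay below the 0 min levels, by 0.23 to 0.45 on the log2 scale. Among the dim H2B genes, Hist1h2bg read -4.84 and -4.42 at 0 min and -5.32 and -5.38 at 5 h, and Hist1h2bp read -5.36 and -5.46, then -5.60 and -5.84. Hist1h2bb, Hist3h2ba and Hist3h2bb gave no value above background to compare.

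H3 genes encode the core histone that pairs with H4. Hist1h3d, whose probe lists 4 H3 genes, had levels of 4.63 and 4.72 at 0 min without and with EPS and 4.49 and 4.50 at 5 h. Hist1h3c read 0.56 and 0.57 at 0 min and 0.42 and 0.28 at 5 h. Hist2h3c2, the H3 probe that ends in A, read 0.07 and 0.32, then -0.53 and -0.60, a 1.51-fold and a 1.89-fold lower 5 h level. Hist2h3c1 read -0.92 and -1.14 at 0 min and -1.76 and -2.00 at 5 h, 1.80-fold and 1.82-fold lower. The dim Hist1h3f was nearly level, at -3.89 and -3.96, then -4.07 and -4.23. No measured H3 gene passed 2-fold in any comparison. Hist1h3i, read at the stem loop, was -4.57 and -4.72 at 0 min and -5.52 on no EPS 5 h, and was not well above background on EPS 5 h, at least 2.49-fold below EPS 0 min.

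Among H4 genes, 6 of 8 were more than 2-fold lower at 5 h without EPS, by nearly the same amount. Hist1h4k had levels of 4.63 and 4.01 at 0 min without and with EPS and 3.47 and 3.24 at 5 h. Hist2h4 read 4.12 and 3.57, then 2.98 and 2.76. Hist1h4d read 3.42 and 2.84, then 2.24 and 2.10. In each of these genes the order of arrays was the same, with no EPS 0 min highest and the 5 h arrays within 0.23 of each other.

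Hist4h4 (H4f16), the gene on chromosome 6 with a known polyadenylated form, had levels of 2.76 and 2.25 at 0 min and 1.60 and 1.44 at 5 h. Hist1h4j read 0.02 and -0.57, then -1.22 and -1.30, and Hist1h4c read -1.03 and -1.46, then -2.17 and -2.53. The 6 H4 genes were 2.37-fold (Hist1h4j) to 2.21-fold (Hist2h4) lower at 5 h without EPS; with EPS, Hist1h4c was 2.09-fold lower and the other 5 between 1.66-fold and 1.75-fold. The probes of Hist1h4c, Hist1h4d, Hist1h4j and Hist1h4k list 2 to 4 H4 genes each and share some of them, so they are not independent measurements. Those of Hist2h4 and Hist4h4 list a single gene each, but another probe of Hist2h4 was not well above background on any array. Hist1h4i, with levels of -0.64 and -0.41 at 0 min and -0.92 and -0.91 at 5 h, and Hist1h4h, at -3.53 and -3.94, then -3.80 and -3.81, differed by -0.28 and -0.27 over time without EPS.

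EPS against no EPS at 0 min gave smaller differences. Of 40 genes measured on both arrays, 1 was at least 2-fold higher after EPS (Hist1h1t), against 0.55% of 18552 genes, and 1 at least 2-fold lower (Hist1h1b), against 0.787%. The difference was below 0 in 27 of 40, against 45.1% of all genes, and its median was -0.27 against 0.02. By class the medians were -0.57 for H1, -0.53 for H4, -0.38 for H2A, 0.06 for H2B and -0.03 for H3. With normexp the H1 median was -0.17, and that of H3 turned to 0.05, as it did to 0.01 with median centring. Among H4 genes 7 of 8 lay between -0.41 and -0.62, and the other, Hist1h4i, was at 0.23. All 8 genes read at the stop codon had values below 0, with a median of -0.46.

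At 5 h, no clustered histone gene differed 2-fold between EPS and no EPS: 0 of 37 were higher, against 0.692% of 18506 genes, and 0 lower, against 0.524%. Below 0 lay 27 of 37, against 56.4% of all genes, and the median was -0.14 against -0.03. The H1 genes differed among themselves, with Hist1h1b at -0.71, Hist1h1e at -0.64 and Hist1h1c at 0.38. Hist1h2be was highest, at 0.74, and Hist2h2bb lowest outside H1, at -0.52. The EPS and time comparisons share arrays, so a high or low level on a single array enters several of them.

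A second, dimmer probe exists for 4 genes, which allows the same gene to be read elsewhere. For Hist1h4k the time differences were -1.16 and -0.77 by the brightest probe and -1.27 and -0.82 by the other, without and with EPS. For Hist1h2ak they were -0.76 and -0.47 by the stop-codon probe and -1.50 and -0.80 by the other probe, which is 2-fold lower without EPS where the first is not. For Hist1h4i, the probe ending in A gave -0.28 and -0.50 and the other -0.99 and -0.56, and the EPS difference at 5 h was 0.01 and 0.49. The second Hist2h4 probe was not well above background on any array. On no EPS 0 min it read -6.28 where the brightest read 4.12, though both list the same single RefSeq gene. The probes of each of these 3 genes had the same direction over time. Those of Hist1h4k, and those of Hist1h4i with EPS, also lay close in size, while those of Hist1h2ak, and of Hist1h4i without EPS, did not.

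**Figure D3:**
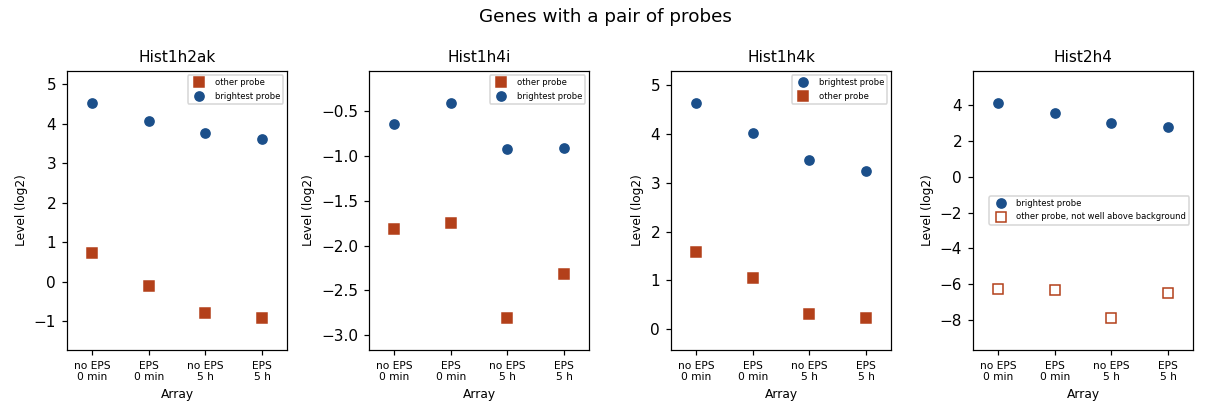
Levels of both probes of the 4 clustered histone genes that have a pair, by array, on a log2 scale with its own range in each panel; circles are the brightest probe, squares the other, open squares not well above background. In Hist1h2ak the difference of no EPS 5 h from no EPS 0 min is -1.50 for the other probe and -0.76 for the brightest.

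The genes known to give polyadenylated RNA (Hist1h1c, Hist1h2ac, Hist1h2bc, Hist2h2be, Hist3h2a and Hist4h4) were all detected on all 4 arrays. So were 31 of the other 41 histone genes and 56.8% of all gene names. Their median difference between EPS and no EPS was 0.02 at 0 min and 0.05 at 5 h, turning to -0.02 at 0 min when scaled on detected probes and to -0.11 at 5 h with normexp. The other histone genes had medians of -0.36 over 34 genes and -0.16 over 31. Over time the 6 genes had medians of -0.83 without EPS, with 2 of 6 at least 2-fold lower, and -0.82 with EPS, with 1 of 6. The rest had -0.74 without EPS, with 11 of 32 lower, and -0.52 with EPS, with 5 of 31. Over all genes, 2.97% were 2-fold lower without EPS and 3.68% with EPS.

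Sorted by probe, the genes read at the stop codon had median time differences of -0.81 without EPS and -0.52 with EPS. Those with the whole or part stem loop had -0.95 over 5 genes and -0.72 over 4, and the first was -0.35 with normexp. The other probes had -0.60 and -0.73. Genes whose probe lists a single RefSeq gene had -0.62 and -0.80, and those whose probe lists several had -0.85 and -0.63. Neither the probed region nor the number of listed genes separated the time differences into ranges of their own.

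Genes of the cell cycle were set beside the histones because histone mRNA is tied to S phase. Of 22 S-phase and replication genes measured, 1 was at least 2-fold lower at 5 h without EPS and 0 higher, and the median was -0.08 (0.06 with median centring), against -0.78 for the histones. That gene was Tk1, thymidine kinase, with levels of -1.07 and -2.06 at 0 min without and with EPS and -2.72 and -2.49 at 5 h. Mcm5, a subunit of the replicative helicase, differed by -0.59 at 0 min.

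Genes of G2 and mitosis were also lower over time without EPS. At 5 h against 0 min without EPS, 10 of 10 measured were below 0 with a median of -0.93, and 4 were at least 2-fold lower: Ccna2 (cyclin A2), Mki67 (a proliferation marker), Plk1 (a mitotic kinase) and Top2a (topoisomerase). Mki67 had a level of -0.58 on no EPS 0 min, -1.71 on EPS 0 min, -1.89 on no EPS 5 h and -1.79 on EPS 5 h, with the first array apart from the rest. With EPS the median over time was -0.10 (0.08 with median centring), where that of the histones was -0.73. At 0 min the differences of all 11 measured were below 0 after EPS, with a median of -0.62, and only Mki67 was 2-fold lower. The part of dividing cells in the histone levels was not tested.

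Genes that make or shorten histone mRNA did not pass 2-fold in any comparison, and 16 of 17 were measured. Slbp, which binds the stem loop, had levels of -2.03 and -1.61 at 0 min without and with EPS and -1.94 and -1.46 at 5 h, so both EPS arrays stood above both no EPS arrays, by 0.42 and 0.48. Npat, a coactivator of histone transcription, was not well above background on any array. Cstf3, a cleavage factor subunit, differed by 0.12 and 0.34 between EPS and no EPS at 0 min and 5 h, and Sympk, the scaffold of the cleavage complex, by 0.28 and 0.06. List medians were 0.05 and 0.08 for EPS at 0 min and 5 h, and 0.11 and 0.19 over time without and with EPS.

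The 10 histone chaperones, which carry histones to DNA, also had no 2-fold difference, with medians of 0.31 and 0.24 over time. Chaf1b, a subunit of chromatin assembly factor, had levels of -0.96 and -1.44 at 0 min and -1.23 and -1.59 at 5 h. Chaf1a, another subunit of that factor, differed by -0.11 and 0.37 after EPS at 0 min and 5 h, and Asf1a, a chaperone of H3 and H4, by -0.18 and -0.25. Of 11 histone variants encoded outside the clusters, 2 were at least 2-fold lower at 5 h without EPS and 1 with EPS, with medians of -0.26 and -0.36. H1f0, the linker histone of resting cells, had levels of -3.84 and -3.74 at 0 min and -5.06 and -5.04 at 5 h, 2.33-fold and 2.46-fold lower. H1fx, another linker variant, was -3.56 and -4.32, then -4.75 and -5.0. Cenpa, the H3 variant of centromeres, read -2.18 and -2.70, then -3.16 and -3.22. H2afy, which encodes macroH2A, differed by -0.39 and -0.12 after EPS at 0 min and 5 h, and H2afx, the variant marked at DNA breaks, was 0.40 higher at 5 h both without and with EPS.

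**Figure D4:**
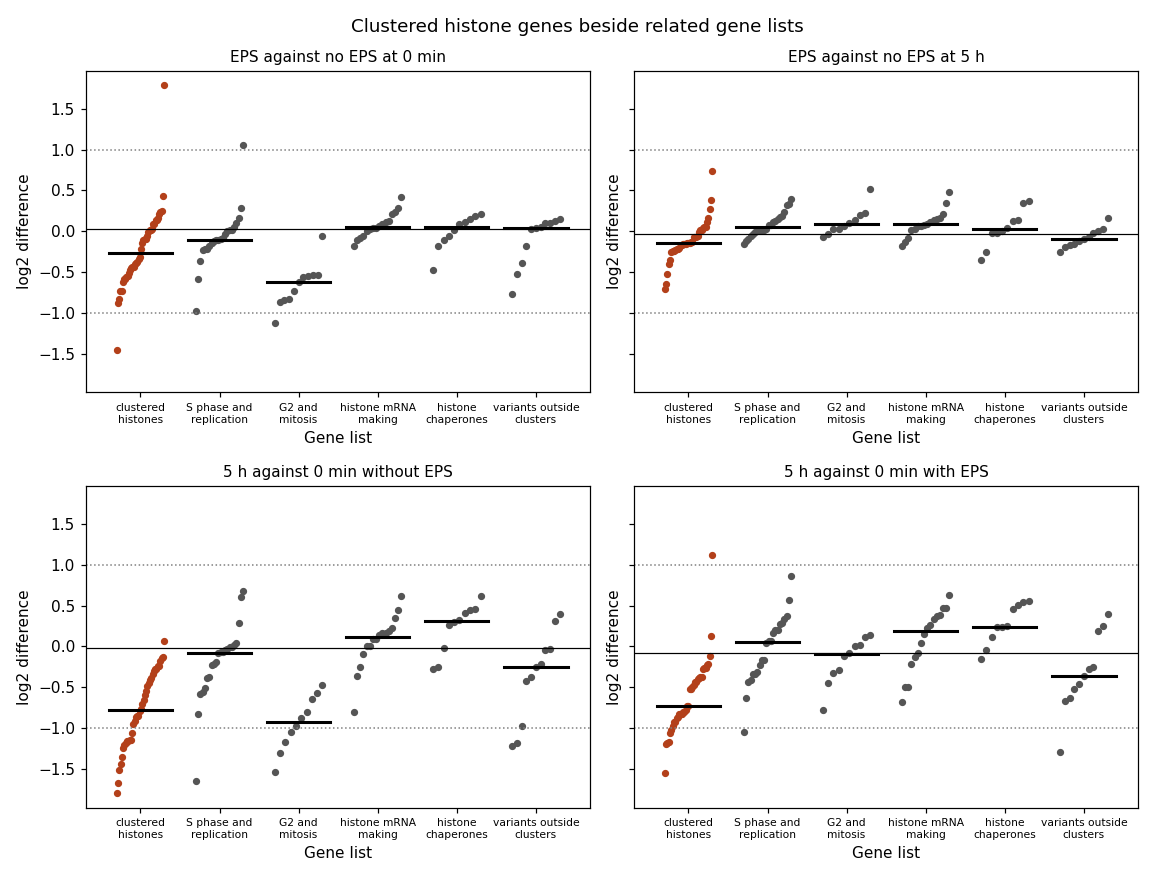
Log2 differences of the clustered histone genes (red) and of 5 related gene lists (grey), each dot a gene measured on both arrays, with black bars for list medians, the thin line for the median of all genes and dotted lines for 2-fold. Histone medians over time are -0.78 without and -0.73 with EPS, while those of the S-phase list are -0.08 and 0.05; with median centring the first of these 2 turns to 0.06 and the histones stay below 0.

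Cell type markers were read on the same arrays. All 16 skeletal muscle markers were well above background on all 4 arrays, with a median level of 4.22 to 4.50. The protocol in the labels speaks of leukocyte RNA, while the sample titles name engineered muscle; of 11 leukocyte markers on the array 5 were detected throughout, while Ptprc, the pan-leukocyte marker, Cd8a and Lyz2 were among those detected on no array. Fibroblast markers, 9 of 10 detected throughout, had median levels of 2.53 and 2.50 at 0 min without and with EPS and 1.81 and 1.76 at 5 h, and a summed signal, relative to the 75th percentile, of 322.5, 353.8, 293.8 and 252.0 in that order. The summed signal of the muscle markers was 809 and 928 at 0 min without and with EPS and 745 and 691 at 5 h, and that of the leukocyte markers 9.17 and 8.30, then 7.87 and 6.95. All 3 sums were thus lower at 5 h. The endothelial sum was lower too, at 3.23 and 3.50, then 2.99 and 1.99. That of the male germ cell markers was slightly higher at 5 h, at 0.111 and 0.0997, then 0.118 and 0.102. The part of any of these cells in the histone levels was not tested. Of 7 endothelial markers 3 were detected throughout and Cdh5, Tek, Tie1 and Emcn on no array; of 7 male germ cell markers 3 were, and Tnp2, Ddx4 and Acrv1 on no array.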

How the data were processed

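RNA of 4 engineered muscle samples, 1 per group, was hybridised to single-colour Agilent arrays on 1 slide; per the labels' protocols, total RNA was reverse-transcribed with an oligo-dT primer, transcribed with T7 RNA polymerase and labelled with Cy3. The deposited scanner files hold spot intensities that, per the file headers, Agilent's Feature Extraction (10.7.3.1) produced, with probe positions in mm9. The processed signal intensity, background-corrected in the deposited files, was taken to log2 after each array was divided by its 75th percentile over non-control spots without outlier flags, which was 1368 and 1287 without EPS (0 min, 5 h) and 1095 and 1498 with EPS. No member spot was flagged as an outlier or saturated. The deposited value table of the series equals the processed signal intensity on a linear scale, uncentred, for 44397 of 44397 values on each array (tolerance 1e-04), with column medians of 75.2, 64.0, 57.6 and 69.4 in that order.

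Each gene name was read by its brightest probe. A difference was counted on genes well above background on both arrays and called at 2-fold. With 1 array per group no test, SD or p-value exists, and precision is limited by the number of arrays. Values on every array are given for genes 2-fold different in any comparison, the 3 genes of highest mean level in each class, and genes listed as polyadenylated or testis-expressed; of related lists, genes 2-fold different after EPS and the 3 with the largest mean EPS difference, with Ccna2, H1f0 and H2afx added after their values were seen. Some of the listed genes are not reported here. Members and lists were chosen with earlier results of these data known. Current symbols were found in RefSeq for 46 of 47 names, all but Hist3h2bb. Sequences of probes are those of the array files. Alternatives were normexp background correction in limma 3.58.1 (offset 50), 3 other scalings, 3 other filters, the mean of a gene's probes and the deposited value table. Scripts ran in Python 3.11.15 and were tested on simulated data.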

Additional observations from a re-analysis of the deposited data

Results flagged for a closer look

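The H3 genes detected on all 4 arrays had a median EPS difference of 0.0099 at 0 min and of -0.13 at 5 h, opposite in sign between the times. With Hist1h3i, which was measured at 0 min but not on EPS 5 h, the 0 min median was -0.03, of the same sign as at 5 h. The difference between the times was not tested, and the first value lies within spot error.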

How the results depend on the processing

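The median over all measured clustered histone genes kept its sign in each comparison under the alternatives run. Smaller sets did not all do so: for EPS the medians of H3 at 0 min and of the polyadenylated genes at both times turned, as the report gives, and that of H2B at 5 h went from 0.08 to -0.0053 with normexp. With normexp background correction the median was -0.18 for EPS at 0 min (-0.27 as reported), -0.63 over time without EPS and -0.59 with EPS; the genes 2-fold higher fell to 0 for EPS at 0 min and to 0 over time with EPS, and those 2-fold lower over time with EPS to 3. With median centring the medians were -0.053 for EPS at 5 h, -0.65 over time without EPS and -0.55 with EPS, and 3 genes were 2-fold lower over time with EPS. Requiring detection on all 4 arrays left 0 genes higher for EPS at 0 min. Without a filter on dim probes, 2 genes were 2-fold higher for EPS at 0 min, 2 for EPS at 5 h, 1 over time without EPS and 2 with EPS, and 11 were lower over time with EPS. The mean of a gene's probes gave a median of -0.64 over time with EPS. The 13 genes lower over time without EPS numbered 12 to 17, and 12 of them were kept under normexp and under median centring. Detection on all 4 arrays held for 36 genes when all probes had to pass and for 42 with the positive-and-significant flag.

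Direction held under normexp and every scaling for 31 of 40 genes (EPS at 0 min), 27 of 37 (EPS at 5 h), 36 of 38 (time without EPS; not Hist1h2bp and Hist1h3f) and 35 of 37 (time with EPS; not Hist1h2ae and Hist1h4h). The median of all genes moved by 0.13 and 0.18 over time without and with EPS under median centring, and by -0.15 without EPS when no filter was set. Of all genes called at 2-fold, the share called higher for EPS at 0 min went from 41.1% to 58.6% with normexp. For EPS at 5 h it went from 56.9% to 68.8% with median centring, 46.4% with detection on either array and 43.0% with no filter. Over time it went from 36.9% to 54.4% without EPS and from 39.3% to 63.2% with EPS under median centring, and to 51.1% with EPS under quantile normalization. No paired analysis was possible because each group has 1 array. With 1 array a group, differences between conditions and between single muscles cannot be told apart, and for probes near background the spot error alone reaches 0.51.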
